A study of Rattus norvegicus with 120 samples.

Results

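The genes described here mark microglia, the resident macrophages of the retina and brain, and tissue macrophages elsewhere. They are C1qa, C1qb, C1qc, Csf1r, Tyrobp, Aif1 and Cd68. Their probe sets were all those that the platform's annotation gives to one of these symbols alone, which made 8 probe sets for the 7 genes, of 31099 probe sets on the array and 14217 genes with a symbol of their own. They were 1376652_at (C1qa), 1370215_at (C1qb), 1373025_at (C1qc), 1388784_at (Csf1r), 1374730_at (Tyrobp), 1375010_at (Cd68) and, for Aif1, 1368558_s_at of higher signal and 1369489_at, called the second Aif1 probe set. The study measured gene expression in the whole eyes of 120 male rats aged 12 weeks, with 1 Affymetrix array per animal and both eyes of an animal pooled. The animals were F2 offspring of the inbred strains SR/JrHsd and SHRSP. SHRSP is a hypertensive strain prone to stroke. No animal was treated, no control group was labelled, and each animal carries its own mixture of the parental alleles. The question that the design allows is therefore how the genes vary between animals and with each other.

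C1qa, C1qb and C1qc encode the chains of C1q, the recognition protein that starts the classical complement pathway, and in mouse brain and visual system C1q marks synapses that microglia remove. Csf1r encodes the receptor for the growth factors Csf1 and Il34, on which most microglia and many tissue macrophages depend for survival. Tyrobp (DAP12) is the signalling adaptor of activating receptors such as Trem2, Aif1 (Iba1) is an actin-bundling protein whose antibody is a standard stain for microglia, and Cd68 is a glycoprotein of macrophage lysosomes. In whole-eye RNA, fewer cells of a type and less RNA per cell cannot be told apart.

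The promoter sequences are shown because the C1q chains varied together and because macrophage genes are commonly bound by PU.1 (Spi1), a factor of the ETS family that recognises a purine-rich core. RefSeq's table for GRCr8 held promoters of 4 of the 7 genes. The 250 bases before each annotated start follow, written 5′ to 3′ in the direction of the gene. Capitals mark GAGGAA, the PU.1 core, and GGAAGT, a general ETS motif, on either strand (TTCCTC and ACTTCC on the other). The motifs share the bases GGAA, so they can overlap.
C1qa, chr5:154419934-154420183, minus strand: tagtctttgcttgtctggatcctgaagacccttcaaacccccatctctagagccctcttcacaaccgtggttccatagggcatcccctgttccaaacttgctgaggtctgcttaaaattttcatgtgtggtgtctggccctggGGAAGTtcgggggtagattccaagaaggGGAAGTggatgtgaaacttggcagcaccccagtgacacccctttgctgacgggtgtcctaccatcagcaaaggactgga
C1qb, chr5:154407828-154408077, minus strand: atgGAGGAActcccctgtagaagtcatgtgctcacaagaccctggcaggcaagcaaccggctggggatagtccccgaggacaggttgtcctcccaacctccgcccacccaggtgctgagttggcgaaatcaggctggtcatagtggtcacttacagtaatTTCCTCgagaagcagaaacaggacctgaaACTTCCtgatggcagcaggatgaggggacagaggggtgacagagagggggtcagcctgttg
Csf1r, chr18:56834129-56834378, plus strand: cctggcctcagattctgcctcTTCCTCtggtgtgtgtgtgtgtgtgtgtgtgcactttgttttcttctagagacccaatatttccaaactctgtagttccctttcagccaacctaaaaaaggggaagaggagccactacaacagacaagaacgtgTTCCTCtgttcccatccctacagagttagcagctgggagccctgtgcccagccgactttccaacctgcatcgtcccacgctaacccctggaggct
Cd68, chr10:54882442-54882691, minus strand: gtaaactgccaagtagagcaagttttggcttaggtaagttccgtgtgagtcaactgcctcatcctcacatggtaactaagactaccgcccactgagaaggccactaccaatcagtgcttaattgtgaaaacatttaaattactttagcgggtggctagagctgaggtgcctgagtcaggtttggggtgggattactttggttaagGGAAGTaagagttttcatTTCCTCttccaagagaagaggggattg
GAGGAA was found 0 times before C1qa, 2 times before C1qb, 2 times before Csf1r and 1 time before Cd68, and 23.3% of all 33469 promoters in the table held it. GGAAGT was found 2 times, 1 time, 0 times and 1 time in the same order, against 19.2% of all promoters with a match. TATAAA was in none of the 4 windows and in 12.9% of all promoters. A match is a description of these letters and not a site, and its absence says nothing about the factor. The C1q genes lie side by side on chromosome 5, while Tyrobp is on chromosome 1, Cd68 on chromosome 10, Csf1r on chromosome 18 and Aif1 on chromosome 20.

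The titles carry a pair of codes that the labels do not explain. The S code has 10 codes of 11 to 13 arrays, and the L code has 22 values of 2 to 11 arrays. S codes 1 to 5 go with dates in the titles, and the titles of S codes 6 to 10 carry none. The arrays had medians between 5.78 and 5.96 on the log2 scale, and 3 were marked as scanned again. The array of animal 63, a rescanned one, was least like the others, with a median correlation of 0.937, and that of animal 15 followed with 0.970, so results that change without them are given both ways. The eye was well represented, with lens (Cryaa at 14.1 and Crybb2 at 13.9) and rod (Sag at 13.3) genes far above the filter on low values, a mean of 4.28. Markers of neighbouring tissue were also above it, among them the skeletal muscle gene Acta1 at 12.1 and the gland gene Pigr at 7.45. All 8 probe sets of the 7 genes passed that filter, as did 23326 probe sets in all. Of the 9 markers of homeostatic microglia, 5 were measured above it. Of 15 markers of tissue macrophages and leukocytes, 12 were above it. The 7 genes are therefore described as a set shared by microglia and other macrophages.

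The levels are the deposited log2 values, first as measured and then with S code means removed. C1qa had a lowest level of 7.47, a median of 8.03 and a highest of 8.70 over the 120 animals. C1qb had 6.59, 7.12 and 7.65, and C1qc had 7.03, 7.62 and 8.31. Among the chains C1qb had the narrowest range. Csf1r had a lowest of 6.75, a median of 7.22 and a highest of 7.58, the tightest range of the set. Tyrobp had 4.59, 5.20 and 6.0. Cd68 had 6.97, 7.37 and 8.06. The Aif1 probe set of higher signal had the widest range, with a lowest of 4.99, a median of 6.02 and a highest of 6.79. The second Aif1 probe set had 4.15, 4.82 and 5.32. The plot of levels by animal shows continuous clouds without separate clusters.

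**Figure D1:**
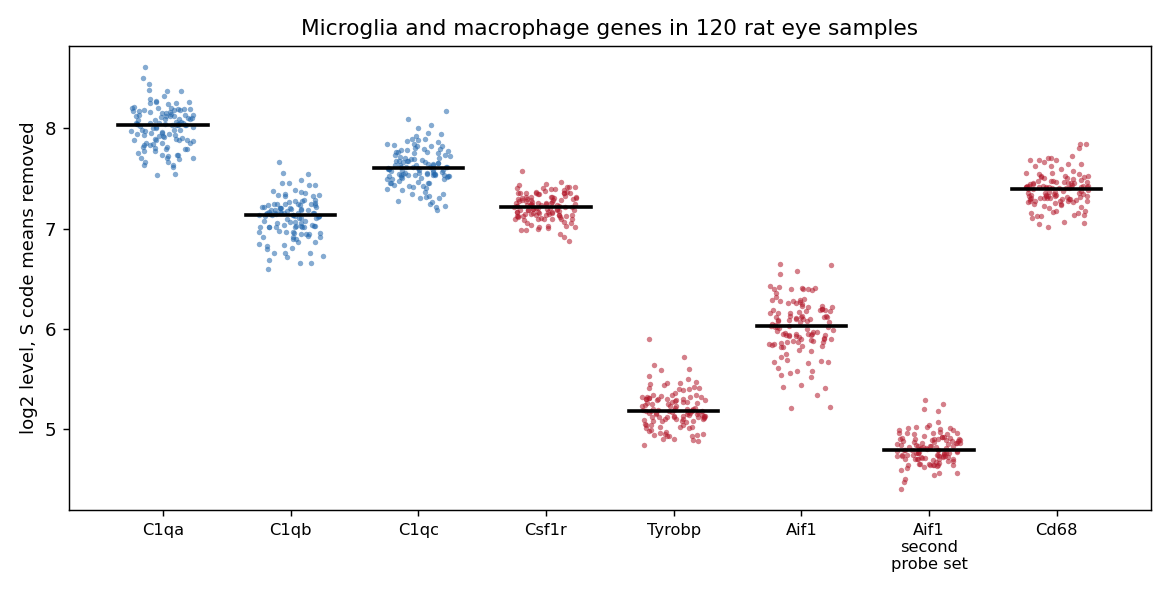
Log2 level of each probe set in the 120 animals with S code means removed (vertical axis), with 1 point per animal and a black line at the median. C1q chains are blue and the other genes red. Aif1 spreads most, from 5.21 to 6.65, and Csf1r least, from 6.88 to 7.58.

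After the S code means were removed, the SD over animals was 0.205 for C1qa, 0.203 for C1qb, 0.190 for C1qc, 0.128 for Csf1r, 0.183 for Tyrobp, 0.167 for Cd68 and 0.283 for Aif1, against a median of 0.162 over all probe sets that passed the filter. The second Aif1 probe set had an SD of 0.151. The highest animal exceeded the lowest by 2.72-fold for Aif1, 2.11-fold for C1qa, 2.09-fold for C1qb, 2.07-fold for Tyrobp, 1.98-fold for C1qc, 1.86-fold for the second Aif1 probe set, 1.78-fold for Cd68 and 1.62-fold for Csf1r. A range of at least 2-fold was reached by 4 of the 8 probe sets, near the background of 53.6% of all probe sets. Without animals 63 and 15 the Tyrobp range fell to 0.873 on the log2 scale, below 2-fold. Aif1, C1qa and C1qb still reached it (1.434, 1.111 and 1.062), as did 7805 of 23326 probe sets. Animal 15 was highest for Csf1r (7.58), Tyrobp (5.89) and Aif1 (6.65) and low for C1qa (7.72). Animal 83 was highest for C1qb (7.66) and C1qc (8.2), with C1qa at 8.50, Csf1r at 7.46 and Cd68 at 7.84. Animal 84 was highest for C1qa, at 8.61. The same animals thus stood at the top for several C1q chains, and another stood at the top for Csf1r, Tyrobp and Aif1.

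The S codes differed for every probe set of the set, as they did for most of the array. In limma's moderated F test with Benjamini-Hochberg adjustment, all 8 passed an adjusted p of 0.05, against 92.1% of all probe sets, and the S code took up 21.6% (C1qa) to 35.3% (Csf1r) of the variance. Aif1 averaged 6.40 ± 0.24 (SD, n = 13) in S code 10, against 5.74 ± 0.22 (n = 12) in S code 2. Csf1r averaged 7.33 ± 0.15 in S code 6, against 7.03 ± 0.12 in S code 2 (n = 12 each). Tyrobp averaged 5.31 ± 0.25 in S code 6, against 4.91 ± 0.19 in S code 2, and Cd68 averaged 7.61 ± 0.27 in S code 6, against 7.25 ± 0.13 in S code 2. The lowest S code was therefore the same for Aif1, Csf1r, Tyrobp and Cd68. C1qa averaged 8.17 ± 0.17 in S code 9, against 7.86 ± 0.17 in S code 5, and C1qc averaged 7.79 ± 0.18 in S code 7, against 7.44 ± 0.16 in S code 5. C1qb averaged 7.27 ± 0.18 in S code 9, against 6.90 ± 0.15 (n = 13) in S code 10. The second Aif1 probe set averaged 4.90 ± 0.13 in S code 3, against 4.56 ± 0.21 in S code 6. C1qa, C1qb and C1qc no longer passed this test when 2 measures of RNA quality, described below, were covariates, while 87.8% of all probe sets did. What the S code stands for was not tested, and its means are removed below.

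C1qc was the only one of the 8 probe sets to differ between L codes. It passed with an adjusted p of 0.0303, when limma's moderated F test with the S code as covariate called 4.58% of all probe sets. C1qc averaged 7.85 ± 0.24 (SD, n = 6) in L code 17, against 7.43 ± 0.17 (n = 4) in L code 15, a 1.33-fold difference. With S code means removed, the animals of L code 17 had a lowest C1qc level of 7.59, a median of 7.83 and a highest of 8.2, and those of L code 15 had 7.25, 7.35, 7.53 and 7.62. The groups overlapped, since 2 of the 6 animals of L code 17 lay below the highest of L code 15. C1qa had an adjusted p of 0.107 and averaged 8.28 ± 0.23 (n = 6) in L code 17, against 7.78 ± 0.34 (n = 3) in L code 13, where the animals had 7.54, 7.63 and 8.16. The other 6 probe sets had unadjusted p-values between 0.169 (C1qb) and 0.659 (Aif1). L code 17 had the highest mean of all 22 for C1qa, C1qb, C1qc, Cd68 and Aif1, the third for Tyrobp and the 12th for Csf1r. It had the second highest mean for the mean of 11 interferon response genes and for that of 8 skeletal muscle genes, and their part in the result was not tested. The C1qc call was lost when S code 3, 4, 6, 8 or 9 was left out, with adjusted p-values of 0.0740, 0.0684, 0.0596, 0.0951 and 0.0855.

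The 3 C1q chains rose and fell together from animal to animal, and in all but 1 case each chain was closer to the other chains than to any other gene read. Pearson's r with S code means removed was 0.800 for C1qa and C1qc (95% interval 0.721 to 0.859), 0.696 for C1qa and C1qb (0.585 to 0.781) and 0.668 for C1qb and C1qc (0.550 to 0.760). Spearman's rho was 0.780, 0.711 and 0.712, and each permutation p of r and rho was 1e-05, the smallest that 100000 permutations within S codes can give (two-sided). In limma regressions of all probe sets on one gene, the larger adjusted p of the 2 directions was 1.45e-21, 3.70e-13 and 1.04e-11. Every S code gave a positive r for each pair, between 0.189 and 0.896. Without the 2 animals farthest from the median, r was 0.778, 0.764 and 0.662. Among 12325 other genes, each represented by the probe set with its highest mean, C1qc ranked the first by r with C1qa, C1qa the first with C1qb and with C1qc, and C1qb the third with C1qa behind Sdhb (r = 0.698), a subunit of succinate dehydrogenase.

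**Figure D2:**
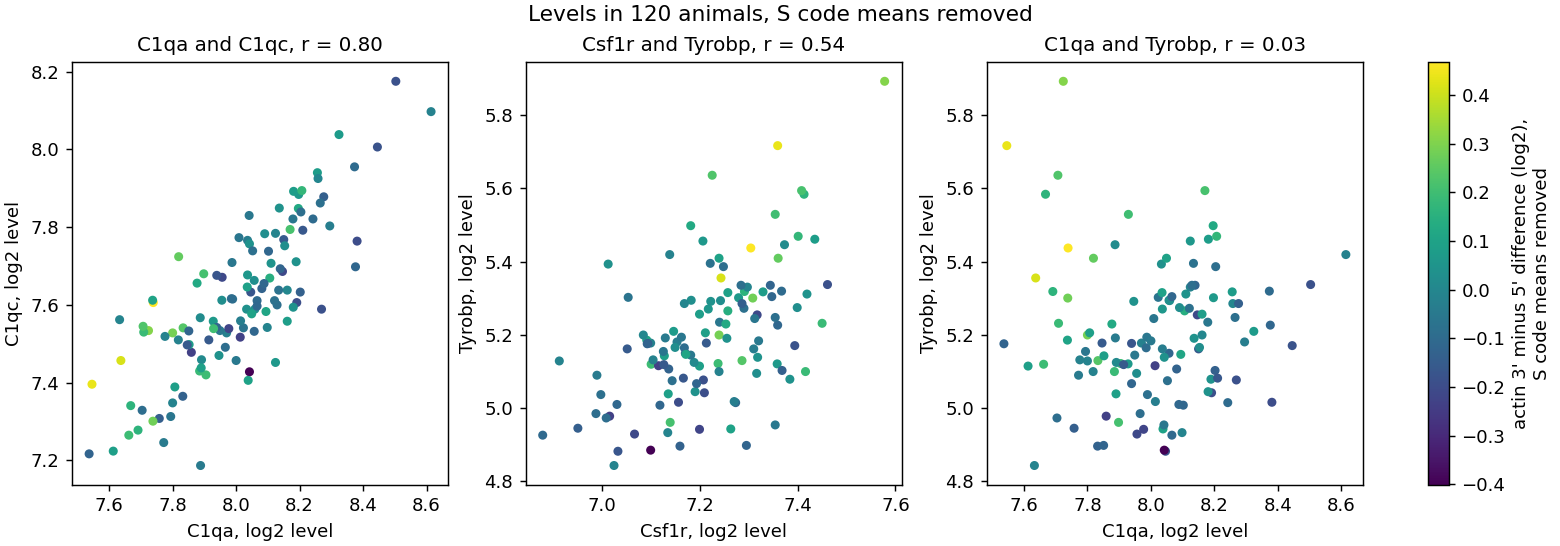
Log2 levels of 3 gene pairs in the 120 animals with S code means removed, with 1 point per animal and colour for the actin 3′ minus 5′ difference. C1qa and C1qc form a narrow diagonal (r = 0.800) and Csf1r and Tyrobp a wider one (r = 0.542), while C1qa and Tyrobp form none (r = 0.0258).

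Csf1r, Tyrobp, Aif1 and Cd68 made a looser group. Csf1r and Tyrobp had r = 0.542 (0.396 to 0.662, rho = 0.508, adjusted p = 1.27e-06), with a positive r in all 10 S codes. Aif1 and Tyrobp had r = 0.516 (rho = 0.511, adjusted p = 3.29e-07), and Csf1r and Aif1 had r = 0.485 (rho = 0.447, adjusted p = 2.45e-05), each positive in 9 of 10 S codes. Permutation p-values of these 3 pairs were 1e-05. Cd68 was less close, with r = 0.374 to Aif1 (adjusted p = 0.00172), 0.316 to Tyrobp (adjusted p = 0.0111) and 0.292 to Csf1r (adjusted p = 0.0215, permutation p = 0.0026), positive in 8, 8 and 7 of 10 S codes. The Cd68 and Csf1r pair missed the threshold without animals 63 and 15 (r = 0.258) and without S code 1 (0.258), 5 (0.265) or 6 (0.216), and the Cd68 and Tyrobp pair without S code 6 (0.235). Both also missed it with L code effects removed (0.249 and 0.271), and with the measures of RNA quality described below as covariates (0.260 and 0.25). Without the 2 animals farthest from the median, r over these 6 pairs lay between 0.272 and 0.492. By r with Csf1r, Tyrobp ranked 7th, Aif1 37th and Cd68 1879th among 12325 genes. By r with Tyrobp, Csf1r ranked 25th, Aif1 75th and Cd68 1900th. By r with Aif1, Tyrobp ranked 322nd, Csf1r 610th and Cd68 2293rd. By r with Cd68, Aif1 ranked 449th, Tyrobp 985th and Csf1r 1325th. Many genes outside the group were therefore closer to Aif1 or Cd68 than its other members were.

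Between the C1q chains and the other 4 genes the relation was weak. Of these 12 pairs, r lay between -0.102 (C1qb and Aif1) and 0.310 (C1qc and Csf1r), with a median of 0.0973, and the last alone passed (adjusted p = 0.0161, rho = 0.293, positive in 7 of 10 S codes). It missed the threshold without S code 4 (r = 0.251) or 5 (0.256) and with L code effects also removed (0.236). C1qa and Tyrobp had r = 0.0258 (95% interval -0.161 to 0.211, permutation p = 0.80). C1qa and Csf1r had r = 0.171 (-0.0163 to 0.346, permutation p = 0.081). These intervals include weak relations in either direction for Tyrobp, so they do not show that the genes are unrelated. In all, 10 of 21 pairs passed and all 10 were positive, 3 of 3 among the C1q chains, 6 of 6 among the other genes and 1 of 12 between them. The difference between these shares was not tested. With L code effects also removed, 7 of 21 pairs passed, 3 of 3 among the C1q chains, 4 of 6 among the other genes and 0 of 12 between them. With the first 5 principal components of all probe sets removed, 5 passed, 3 of 3, 0 of 6 and 2 of 12, and the median r was 0.169 among the other genes and 0.30 between them and the C1q chains. Few genes passed at all under that setting. Of all genes, 0.422% rose with C1qa, 2.34% with C1qb, 2.32% with C1qc, 0.0243% with Csf1r, 0.154% with Tyrobp, 0.957% with Aif1 and 1.22% with Cd68. With S code means alone removed, the background of probe sets that rose with a gene was 19.6% for C1qa, 18.3% for C1qb, 9.56% for C1qc, 23.3% for Csf1r, 25.4% for Tyrobp, 35% for Aif1 and 13.5% for Cd68.

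The 2 Aif1 probe sets ran in opposite directions. Their r was -0.342 (95% interval -0.497 to -0.167, rho = -0.279, permutation p = 0.00048, adjusted p = 0.00213), when 18.8% of probe sets fell with the second one, and r was positive in 1 of 10 S codes. Animal 79, with 5.21 on the probe set of higher signal, had 5.25 on the second. Not every animal followed this pattern. Animal 15, the highest for the probe set of higher signal, had 4.87 on the second, above its median of 4.79. With the second probe set standing for Aif1, its r was -0.0547 with Cd68, -0.0706 with Csf1r and -0.116 with Tyrobp, and 7 of 21 pairs passed. The statements on Aif1 here therefore hold for the probe set of higher signal. The second probe set was near the filter of 4.28, with a mean of 4.80 and a lowest animal at 4.15. The part of its low signal in the opposite directions was not tested.

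Most of the genes moved with a measure of RNA quality, as most of the array did. The array carries control probe sets at the 3′ and 5′ ends of beta-actin and Gapdh, whose difference grows where transcripts are degraded or incompletely labelled. The actin difference was 0.796 at its lowest, 1.17 at its median and 1.72 at its highest on the log2 scale, and that of Gapdh was -0.0222, 0.186 and 0.641. With the actin difference, Tyrobp (r = 0.541, rho = 0.460, adjusted p = 5.63e-09), Aif1 (0.447, rho = 0.418, 2.30e-06), Csf1r (0.357, rho = 0.328, 0.000313) and Cd68 (0.217, rho = 0.245, 0.0338) rose, when 39.3% of all probe sets did. C1qa (r = -0.411, rho = -0.327, adjusted p = 1.88e-05) and C1qb (-0.395, rho = -0.321, 4.30e-05) fell, when 26.6% did, and C1qc (-0.155, adjusted p = 0.139) and the second Aif1 probe set (-0.106, adjusted p = 0.326) did not pass. With the Gapdh difference Tyrobp, Aif1 and Csf1r rose (r of 0.525, 0.433 and 0.427), when 39.4% did, and C1qa and C1qb fell (-0.389 and -0.320), when 24.8% did, while Cd68 had r = 0.170 (adjusted p = 0.104). The relation of Csf1r to the actin difference depended on the S code, since r was -0.0766 where S code means were kept. Within single S codes, r with the actin difference was positive in 10 of 10 for Aif1, 9 for Tyrobp, 8 for Csf1r, 6 for Cd68, 3 for C1qc, 2 for C1qa and 1 for C1qb.

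**Figure D3:**
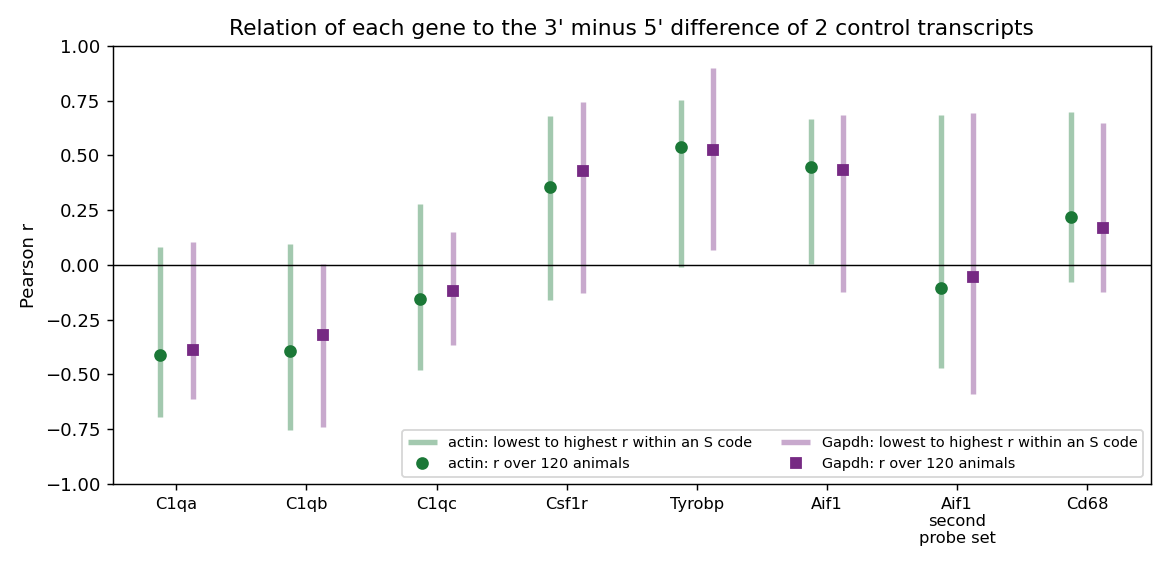
Pearson r of each probe set with the 3′ minus 5′ difference of actin (green circles) and Gapdh (purple squares) over 120 animals, S code means removed, with bars for the lowest and highest r within a single S code. Tyrobp, Aif1, Csf1r and Cd68 lie above 0 and C1qa, C1qb and C1qc below it.

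The separation of the C1q chains from the other genes changed when both control differences were covariates. Then 14 of 21 pairs passed and 20 were positive. Pairs between C1q chains and the other genes had a median r of 0.319, against 0.0973 without the covariates, and 7 of 12 passed. C1qa had r = 0.404 with Aif1 (adjusted p = 0.000521), 0.399 with Csf1r (adjusted p = 0.0109) and 0.331 with Tyrobp (adjusted p = 0.0427). C1qb passed with Tyrobp (r = 0.324, adjusted p = 0.0488) and not with Csf1r (0.256, adjusted p = 0.204), Aif1 (0.0841) or Cd68 (-0.0115). The C1q pairs had r between 0.644 and 0.822. The 6 pairs among the others had a median of 0.341, against 0.429, and 4 passed. Cd68 missed the threshold with Csf1r (r = 0.260, adjusted p = 0.198) and with Tyrobp (0.25, adjusted p = 0.155). The background of probe sets that rose with a gene was then 13.9% for C1qa, 5.87% for C1qb, 10.3% for C1qc, 0.484% for Csf1r, 0.639% for Tyrobp, 16.5% for Aif1 and 5.4% for Cd68.

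**Figure D4:**
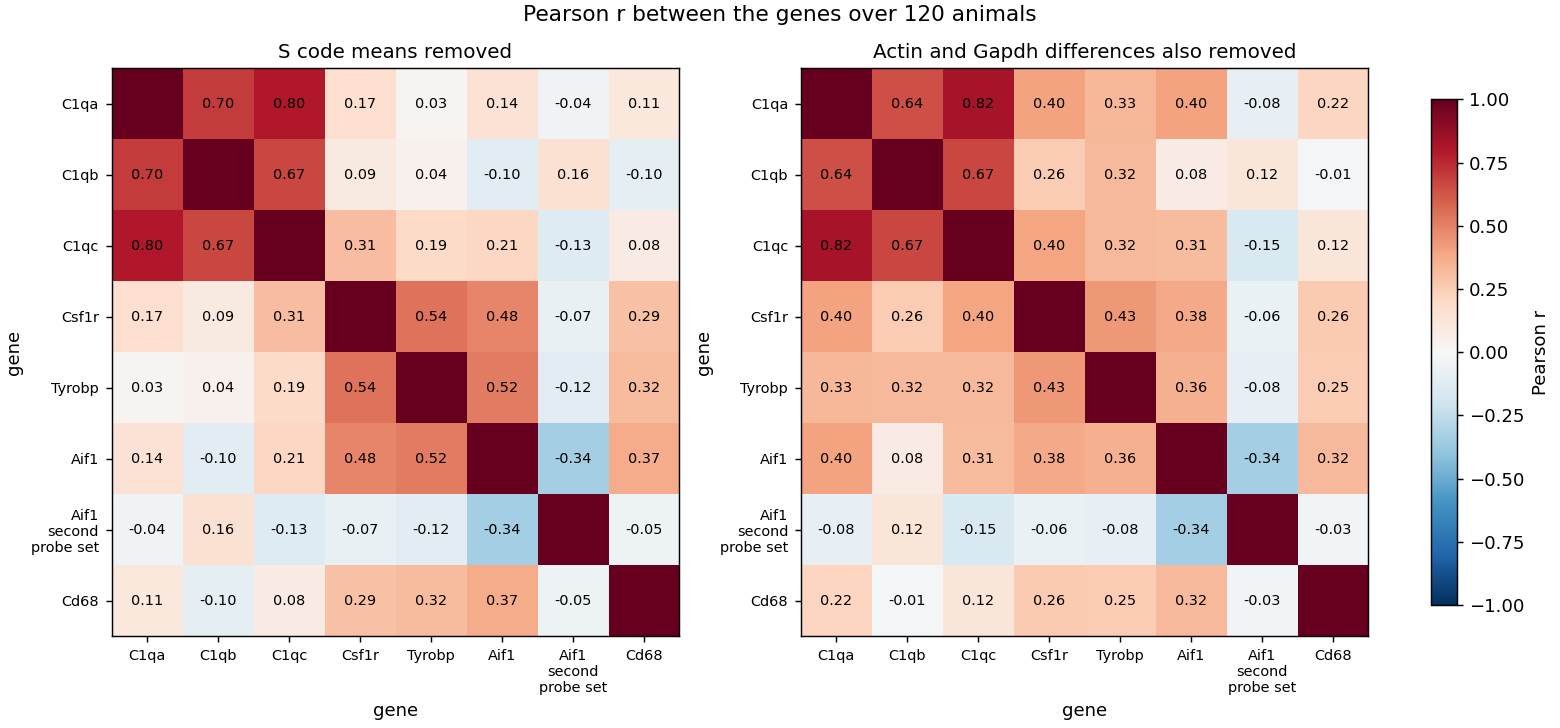
Pearson r between all 8 probe sets over 120 animals, as coloured cells from -1 (blue) to 1 (red), with S code means removed (left) and with the actin and Gapdh differences also removed (right). The C1q block is dark in both, and the cells between C1q chains and Csf1r, Tyrobp and Aif1 are redder on the right, with C1qb and Aif1 pale in both (r = 0.0841 on the right and -0.102 on the left).

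The genes most like the whole set were a pair of macrophage genes. By the mean of r over the 7 genes, Fcer1g (0.456), the shared gamma chain of Fc receptors, and Ctss (0.448), a lysosomal protease of antigen-presenting cells, came first of the 12326 genes read, the set itself left out, and both had a positive mean in all 10 S codes. Fcer1g had r = 0.599 with Aif1, 0.573 with C1qc, 0.569 with Tyrobp, 0.490 with Csf1r, 0.414 with C1qa, 0.334 with Cd68 and 0.213 with C1qb. Ctss had r between 0.310 (Cd68) and 0.545 (Tyrobp). The next were Xdh (0.370), a purine-degrading enzyme, Shisa5 (0.364), Crip1 (0.363), Fcna (0.354), a ficolin of the lectin complement pathway, Fitm1 (0.353), Lyz2 (0.347), the lysozyme of macrophages, Apol3l1 (0.346) and Cox8b (0.345), a muscle isoform of cytochrome c oxidase. At the other end were Pdxdc1 (-0.241), Syt1 (-0.233), a synaptic vesicle protein, Ctla4 (-0.229), Tp53inp1 (-0.226) and Isl1 (-0.220), a transcription factor of retinal neurons. Tp53inp1, Pdxdc1 and Ctla4 had mean levels of 4.33, 4.52 and 4.66, near the filter of 4.28, so little can be said of them. Isl1 and Syt1 had 7.25 and 8.17. Without removal of S code means the mean r was -0.128 for Pdxdc1, -0.0077 for Syt1, -0.305 for Ctla4, -0.124 for Tp53inp1 and -0.0331 for Isl1, and with 5 principal components removed these 5 lay between -0.131 and -0.0451. Syt1 had r = -0.666 with the actin difference itself, and -0.635 with Tyrobp.

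For single genes the closest gene outside the set was a different one each time. It was Sdhb for C1qa (r = 0.698), Pi16 for C1qb (0.614), Tppp3 for C1qc (0.609), Stab1, a scavenger receptor of macrophages, for Csf1r (0.590), Rpl22, a ribosomal protein, for Tyrobp (0.631), Adgre1, the F4/80 antigen of macrophages, for Aif1 (0.662) and Pigr, the epithelial transporter of antibodies, for Cd68 (0.662). Each had an adjusted p of 1.20e-07 or below in limma. Pigr, as a gland gene, had r = -0.0078 with C1qa. The counts for the gene lists that follow are of genes whose slope on the gene named had an adjusted p below 0.05, and the share of all genes that did so differed widely. With C1qa 17.4% of genes rose and 8.62% fell, with C1qb 14.7% and 33%, with C1qc 12.2% and 1.14%, with Csf1r 29.3% and 5.62%, with Tyrobp 32.2% and 9.95%, with Aif1 42.4% and 14.7%, and with Cd68 17.8% and 1.72%. With the control differences as covariates the share of genes that rose was 17.7% for C1qa, 6.71% for C1qb, 13.8% for C1qc, 0.722% for Csf1r, 1.01% for Tyrobp, 19.5% for Aif1 and 7.6% for Cd68, so list counts under that setting are read against these shares. With L code effects also removed it was 15.2% for C1qa, 14.5% for C1qb, 10.9% for C1qc, 16% for Csf1r, 28.6% for Tyrobp, 40.3% for Aif1 and 7.1% for Cd68.

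Markers of microglia and macrophages rose with Csf1r, Tyrobp and Aif1 in larger number than with the C1q chains, though so did genes at large, and the difference was not tested. Of 5 homeostatic microglia genes, 2 rose with Csf1r, with Tyrobp and with Cd68 and 3 with Aif1, against 1 with C1qa and 0 with C1qb and C1qc, while 2 fell with C1qb and 1 with Aif1. P2ry12, a purine receptor that defines resting microglia, had r = 0.427 with Csf1r, 0.420 with Tyrobp and 0.533 with Aif1, and -0.149 with C1qa and -0.318 with C1qb. It also had r = 0.492 with the actin difference. Cx3cr1, the fractalkine receptor, had r = -0.115 with Csf1r and -0.184 with Tyrobp, and Tmem119 had 0.0740 and 0.0268. Of 12 tissue macrophage and leukocyte genes, 7 rose with Csf1r, 7 with Tyrobp, 8 with Aif1 and 5 with Cd68, against 2 with C1qa, 4 with C1qb and 3 with C1qc, while 1 fell with C1qb and 1 with Aif1. The list's median r was 0.349 with Csf1r and 0.359 with Tyrobp, against medians of 0.120 and 0.115 over all genes. Mrc1, the mannose receptor, had r = 0.545 with Csf1r, and Cd163, the haemoglobin scavenger receptor, had 0.479 with Csf1r and 0.525 with Tyrobp. With the control differences as covariates the counts were 4 of 12 for Csf1r, 3 for Tyrobp and 5 for C1qa, when 0.722%, 1.01% and 17.7% of all genes rose with them, against 7, 7 and 2 when 29.3%, 32.2% and 17.4% did.

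Among the partners of these proteins the pattern was mixed. Of 7 Tyrobp partners and Fc receptors, 4 rose with Tyrobp (Fcer1g, Fcgr2b at r = 0.523, Fcgr3a at 0.405 and Fcgr1a at 0.367), against 3 with Csf1r, 4 with Aif1, 2 with Cd68, C1qa and C1qc, and 1 with C1qb, while 1 (Trem2) fell with C1qa and Aif1. Trem2, the receptor that signals through Tyrobp, had r = 0.0536 with Tyrobp and -0.231 with C1qa. Neither ligand of Csf1r passed with Csf1r, as Il34 had r = 0.196 and Csf1 -0.130. Il34, which is made by neurons, rose with C1qa (r = 0.344), C1qb (0.382) and C1qc (0.342). Csf1 fell with Aif1 (r = -0.260).

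Of 17 complement genes, 3 rose with C1qa, 5 with C1qb, 4 with C1qc, 6 with Csf1r, 6 with Tyrobp, 4 with Aif1 and 2 with Cd68, while 2 fell with C1qb and Tyrobp, 1 with Csf1r and 4 with Aif1. Of all genes, 17.4%, 14.7%, 12.2%, 29.3%, 32.2%, 42.4% and 17.8% rose with these 7 in the same order. The counts that rose were near that share for C1qa, Csf1r and Tyrobp and below it for Aif1 and Cd68. With the control differences as covariates 6 rose with C1qa, 1 with Csf1r, 1 with Tyrobp and 0 with Cd68, and 1 fell with Aif1. The shares of all genes that rose were then 17.7%, 0.722%, 1.01% and 7.6%. With L code effects also removed 3 rose with C1qb, 2 with Csf1r and 0 with Cd68. Without the rescanned arrays 3 rose with C1qb, when 15.6% of all genes did, and 0 with Cd68, and without animals 63 and 15, 2 fell with Aif1, when 15.2% of all genes did. Serping1, the inhibitor of C1r and C1s, had r = 0.657 with C1qa, 0.440 with C1qb and 0.557 with C1qc, and 0.126 with Csf1r and -0.0490 with Tyrobp. C1r, the protease that C1q activates, had r = 0.482, 0.375 and 0.50 with the C1q chains and 0.0378 with Csf1r. C1s, the other protease of the complex, had r = 0.112 with C1qa and 0.478 with Aif1. Clu, a secreted chaperone that inhibits complement, had r = 0.489 with C1qa and -0.316 with Tyrobp. Cfd, a protease of the alternative pathway, had r = 0.540 with Csf1r, 0.522 with Tyrobp and 0.113 with C1qa, and it also rose with C1qc (r = 0.296, limma adjusted p = 0.0206). Cd59b, which blocks the membrane attack complex, had r = -0.440 with Tyrobp. With the actin difference r was -0.473 for Clu, -0.374 for Cd59b, 0.369 for Cfd, -0.244 for Serping1, -0.166 for C1r and 0.341 for C1s, and its part in these relations was not tested.

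Of 16 lysosome and phagocyte enzymes, 8 rose with C1qa, 5 with C1qb, 7 with C1qc, 8 with Csf1r, 9 with Tyrobp, 9 with Aif1 and 6 with Cd68, and 1 fell with C1qb, Csf1r and Tyrobp and 2 with Aif1, with list medians of r from 0.106 (C1qb) to 0.339 (Aif1). With the control differences as covariates 11 rose with C1qa, 1 with Csf1r, 3 with Tyrobp and 3 with Cd68, and with L code effects also removed 2 rose with Cd68. Without the rescanned arrays 8 rose with C1qb and 4 with Cd68. Ctsd, a lysosomal protease, had opposite signs, with r = 0.583 with C1qa and -0.508 with Tyrobp, and it had r = -0.790 with the actin difference. Cyba, a subunit of the phagocyte oxidase, had r = 0.646 with C1qa, -0.207 with Tyrobp and -0.612 with the actin difference. Of 7 genes of the lipid-handling macrophage state, 3 rose with C1qa and with Aif1, 2 with C1qb, C1qc, Csf1r and Tyrobp, and 0 with Cd68, while 1 fell with C1qb and Csf1r and 2 with Tyrobp and Aif1. Apoe, a lipid carrier of glia and macrophages, had r = 0.546 with C1qa, -0.357 with Tyrobp and -0.580 with the actin difference. Of 8 MHC class II genes, 3 rose with C1qa, C1qb, Tyrobp and Aif1, 2 with C1qc, 1 with Csf1r and 4 with Cd68, and 1 fell with Aif1. RT1-Da, a class II chain, had its highest r with Cd68 (0.429), and RT1-DMb, which loads peptides, with C1qb (0.450).

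Interferon response genes rose with C1qa in every case and with Csf1r in 1 case, a difference that was not tested. Of 11 such genes, 11 rose with C1qa, 10 with C1qc, 7 with C1qb, 10 with Aif1, 9 with Cd68, 6 with Tyrobp and 1 with Csf1r, and none fell with any. The list's median r was 0.391 with C1qa, 0.382 with C1qc, 0.293 with C1qb, 0.290 with Aif1, 0.271 with Cd68, 0.251 with Tyrobp and 0.0918 with Csf1r. Irf7, the transcription factor that amplifies the response, had r = 0.496 with C1qa, and Usp18, which restrains it, had 0.486 with C1qc. The counts were lower with L code effects also removed, when 5 rose with C1qa, 4 with C1qc, 1 with C1qb, 8 with Aif1, 5 with Tyrobp, 1 with Cd68 and 0 with Csf1r. With the control differences as covariates 11 rose with C1qa, C1qc and Aif1, 8 with C1qb, 2 with Cd68, 1 with Tyrobp and 0 with Csf1r, and the low counts go with low shares of all genes (7.6% for Cd68, 1.01% for Tyrobp and 0.722% for Csf1r). Without the rescanned arrays 1 rose with Cd68, when 9.01% of all genes did, and without animals 63 and 15, 5 did, when 9.34% of all genes did. The list's median r with the actin difference was 0.0356.

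Other cell types were traced through their own markers. Of 8 skeletal muscle genes, 5 rose with C1qa, 4 with C1qb, 6 with C1qc, 7 with Csf1r, 5 with Aif1, 2 with Tyrobp and 0 with Cd68. Ckm, the muscle creatine kinase, had r = 0.537 with C1qa and 0.0879 with Csf1r, and Casq1, a calcium store protein of muscle, had 0.0925 and 0.484. Of the 8 genes, 4 rose with both C1qa and Csf1r (Acta1, Actn3, Myl11 and Tnnt3), 1 with C1qa without passing with Csf1r (Ckm) and 3 with Csf1r without passing with C1qa (Casq1, Myh4 and Tnni2). With the control differences as covariates 7 rose with C1qa, 6 with C1qb, 7 with C1qc, 2 with Csf1r, 0 with Tyrobp and 4 with Aif1. With L code effects also removed 4 rose with each C1q chain, 2 with Csf1r, 1 with Tyrobp and 3 with Aif1. Csf1r had the highest count in neither setting, but the background differed. With the covariates 0.722% of all genes rose with Csf1r, against 17.7% with C1qa. With L code effects removed the shares were 16% and 15.2%. Of 5 lacrimal and Harderian gland genes, 3 rose with Cd68, 1 with C1qa, Tyrobp and Aif1, and 0 with C1qb, C1qc and Csf1r, while 1 fell with C1qb and with Tyrobp. Of 7 rod photoreceptor genes, 4 fell with Tyrobp, 3 with Csf1r, 3 with Aif1 and 1 with Cd68, C1qa and C1qb, while 2 rose with C1qa and with C1qb. Rcvrn, a rod calcium sensor, had r = -0.470 with Tyrobp, 0.363 with C1qa and -0.524 with the actin difference. Of 7 Mueller glia and astrocyte genes, 6 rose with Aif1, 4 with Csf1r, 2 with Tyrobp and 1 with Cd68, 5 fell with C1qb and none passed with C1qa or C1qc. Vim, their intermediate filament, had r = 0.425 with Aif1, -0.352 with C1qb and 0.572 with the actin difference.

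**Figure D5:**
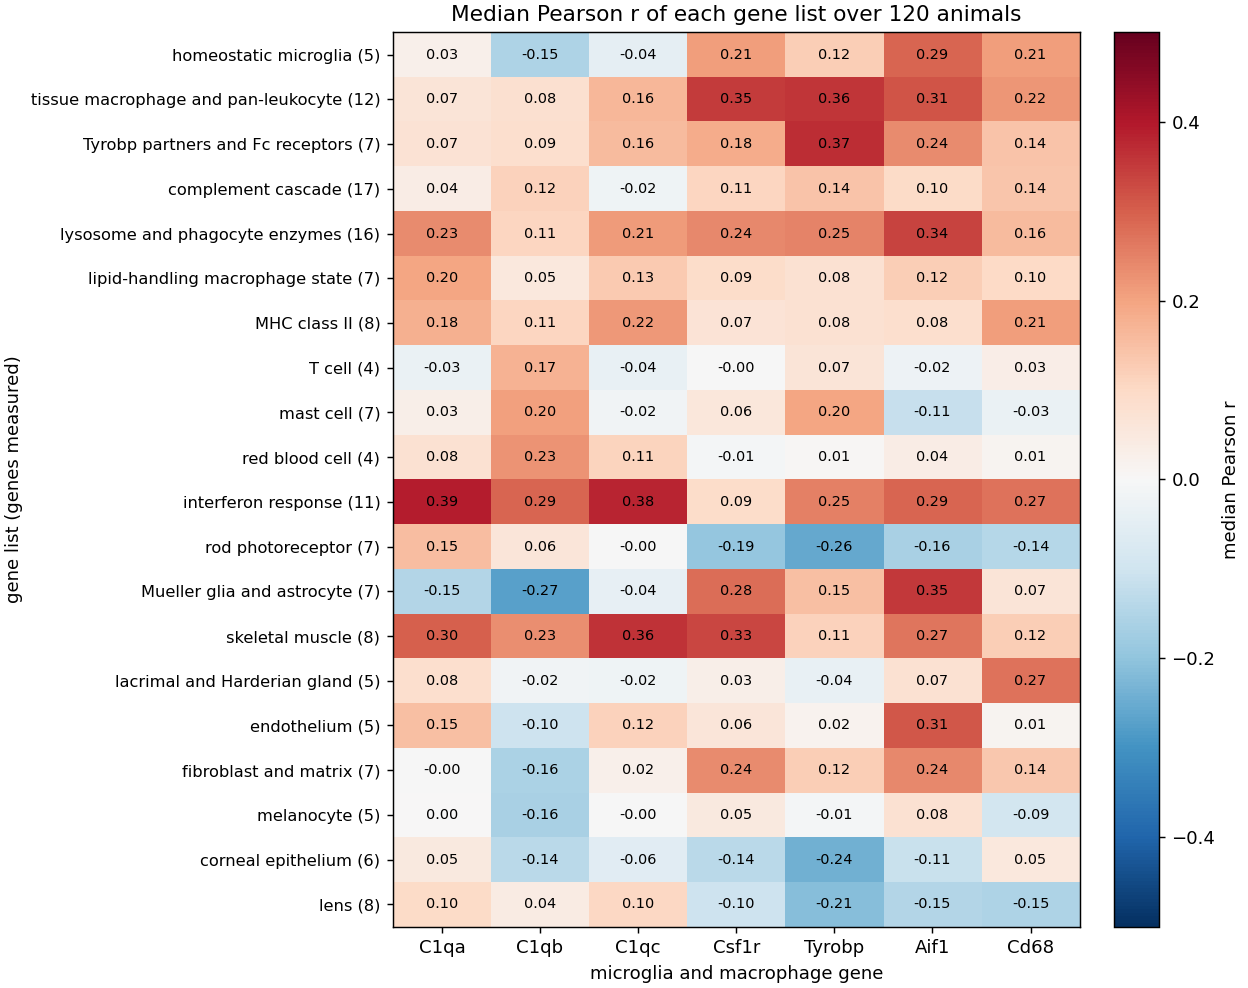
Median Pearson r of each gene list of at least 4 measured genes (down the page, with the number measured in brackets) with each of the 7 genes (across), over 120 animals with S code means removed, from -0.5 (blue) to 0.5 (red). The interferon row is reddest for C1qa (0.391) and C1qc (0.382) and pale for Csf1r alone (0.0918). In that row C1qb (0.293), Aif1 (0.290), Cd68 (0.271) and Tyrobp (0.251) lie close together. The macrophage row is redder for Csf1r (0.349), Tyrobp (0.359) and Aif1 (0.314) than for C1qa (0.065), C1qb (0.0793) and C1qc (0.164).

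T cell, B cell and neutrophil markers were mostly below the filter, and most mast cell and red blood cell markers with a probe set were above it. Of 10 T cell genes, 4 were measured, and Cd3d, Cd3e, Cd8a, Cd8b, Cd5 and Il7r were below it. Of those 4, Cd3g had r = 0.494 with Tyrobp, and 2 genes rose with C1qb, 1 with Csf1r, Tyrobp and Aif1 and 0 with C1qa, C1qc and Cd68, while 2 fell with Aif1. Of 9 neutrophil genes 1 (Lcn2) was measured and it passed with none of the 7 genes, and of 7 B cell and plasma cell genes 2 were, of which Jchain rose with Aif1 and Cd68 and Mzb1 fell with Aif1. Of 8 mast cell genes 7 were measured, of which 3 rose with C1qb, Csf1r, Tyrobp and Aif1, and none with C1qa, C1qc and Cd68, while 3 fell with Aif1 and 1 with C1qb and Tyrobp. Of 7 red blood cell genes 4 were measured, of which 3 rose with C1qb, 1 with Tyrobp and none with the other 5, and 1 fell with Aif1. Of 5 endothelial genes, 3 rose with Aif1, 2 with Csf1r and 1 with each of the others, while 2 fell with C1qb, and Tek, a receptor of blood vessels, had r = 0.571 with Aif1. Of 7 fibroblast and matrix genes, 5 rose with Aif1, 4 with Csf1r, 2 with Tyrobp and 1 with Cd68, and 2 fell with C1qb. Of 5 melanocyte genes, 2 fell with C1qb and 1 rose with C1qa. Of 6 corneal epithelium genes, 3 fell with Tyrobp, 2 with C1qb, Csf1r and Aif1, and 2 rose with C1qa and 1 with Cd68 and Aif1. Of 8 lens genes, 2 rose with each C1q chain, while 3 fell with Tyrobp and with Aif1, 2 with Csf1r and 1 with Cd68. The part of these other cell types in the relations between the 7 genes was not tested.

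Neighbouring genes on the chromosome were less close than the C1q chains were to each other. Among the 5 genes read on either side in RefSeq's order for GRCr8, leaving out the C1q genes, r lay between -0.150 (Hnrnpr) and 0.366 (Wnt4) for C1qa, between -0.409 (Hnrnpr) and 0.258 (Wnt4) for C1qb and between -0.131 (Hnrnpr) and 0.235 (Wnt4) for C1qc. Wnt4, a secreted signalling protein, rose with C1qa (limma adjusted p = 0.000695) and C1qb (0.0155), and Hnrnpr, an RNA-binding protein, fell with C1qb (0.000119). Tnfsf13, a cytokine of the TNF family, had r = 0.368 with Cd68, and Arhgef37 had 0.342 with Csf1r. Aif1 had r = 0.288 with Ddx39b, a helicase, and -0.407 with Gpank1. The neighbours of Tyrobp had r between -0.168 (Lrfn3) and 0.187 (Sdhaf1), none of which passed the threshold.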

How the data were processed

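Per the labels, RNA from both eyes of each animal was pooled, and 1 array was run per animal without replicates. The values are on the log2 scale and were deposited by the authors as RMA (robust multi-array average) output, which the submitters' processing notes name without a version. Because RMA scales arrays against each other, shifts common to most genes can be reduced, and probes that match the allele of a single strain can mimic an expression difference. The genome build was not given in the sources used here. Of 31042 probe sets that were not controls (57 were), 20826 had 1 symbol, 436 had several and 9780 had none, from the platform's annotation with symbols updated through RefSeq's GRCr8 table, which held 20758 of the first.

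Probe sets were tested if their mean reached the 25th percentile of the whole table. The tool was limma 3.58.1 in R 4.3.3: moderated F tests for S and L codes, and regressions of every probe set on each gene with the S code as covariate. A pair passed where the adjusted p was below 0.05 in both directions. Benjamini-Hochberg adjustment ran over all probe sets tested. Permutations within S codes were two-sided. The fits were tested on simulated data. With 1 array an animal, biological and technical spread are not separated in the p-values, and precision is limited by the number of arrays. No array was a copy of another (smallest SD of the difference between arrays 0.173).

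The genes named were all probe sets of the set, the 10 genes of highest and the 5 of lowest mean r with it, the closest gene for each, examples from 23 lists and the 5 neighbours on either side, with 1 probe set a gene, the one of highest mean. A few list genes beyond the highest and lowest r of a list (such as Cd163, C1r, C1s, Casq1 and Tmem119) were named after their values were seen. The lists held 211 genes, of which 161 were tested, 23 were below the filter and 27 had no probe set of their own, with 2 found under a newer symbol. The genes and lists were chosen with earlier results of these data known. Alternatives were other arrays, scalings, covariates, thresholds, coefficients and probe sets. Those for the control differences, the mean r and the lists were chosen after seeing the data.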

Additional observations from a re-analysis of the deposited data

How the results depend on the processing

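Most results kept their direction and their side of the threshold. No paired analysis was possible because all animals form 1 labelled group. With the actin and Gapdh differences as covariates 5 of the 8 probe sets passed the S code test, when 87.8% of all probe sets did. Those that missed it were C1qa (adjusted p = 0.913), C1qb (0.390) and C1qc (0.116). C1qb (adjusted p = 0.0627 without S code 10), Tyrobp (0.0874 without S code 2) and the second Aif1 probe set (0.341 without S code 6) also missed it. In every other setting run all 8 passed. For the L code, 3 of the 8 probe sets passed without removal of S code means, and 0 passed without S codes 3, 4, 6, 8 or 9, and 0 at an adjusted p of 0.01, where 1 had passed before. The L code count over all probe sets was 1068, against 3003 without removal of S code means, 2123 with the control differences as covariates, 474 at an adjusted p of 0.01, and 1774, 699, 1703, 643 and 657 without S codes 4, 5, 6, 8 and 9. With 5 principal components removed, 5 of 21 pairs passed, when 0.0243% (Csf1r) to 2.34% (C1qb) of all genes rose with a gene of the set. The median r of the 6 pairs among Csf1r, Tyrobp, Aif1 and Cd68 was 0.169 with 5 components removed and 0.119 with the second Aif1 probe set, and the median of the 12 pairs of C1q chains with these genes was 0.319 with the control differences as covariates and 0.30 with 5 components removed, when 0 of the 6 and 2 of the 12 pairs passed.

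With the second Aif1 probe set, the r of Aif1 was reversed with Cd68 (-0.0547), Csf1r (-0.0706) and Tyrobp (-0.116). Genes that rose with the actin difference numbered 4, against 2 without removal of S code means and 0 with 5 components removed. Those that fell numbered 2, against 0 with 5 components removed. In the main setting 39.3% of all probe sets rose and 26.6% fell. The shares in the other settings are not given here, so the change in these counts is not read as particular to the set. The r with the actin difference was reversed with 5 components removed for Cd68 (-0.258), Csf1r (-0.139), Aif1 (-0.150) and Tyrobp (-0.147), and without removal of S code means for Csf1r (-0.0766). A range of at least 2-fold was reached by 7 of the 8 probe sets without removal of S code means, 1 with 5 components removed and 1 with L code effects also removed. Over all 23326 probe sets it was reached by 16305, 2854 and 7901 in the same order, against 12506 in the main setting. Without the rescanned arrays that number was 8251, without animals 63 and 15 it was 7805 and without S code 3 it was 8081. The cause of these changes was not tested. Among the other alternatives, 1167 values for single genes, pairs or lists and 182 for whole comparisons were classed as the same. For a count this meant a value close to the main one, and not a side of the threshold. Of the first kind 40 lost and 13 gained the threshold and 75 moved. Probe sets near the filter, such as those of P2ry12 and Cx3cr1, limit what can be said of resting microglia.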
